A study of Arabidopsis thaliana with 12 samples.

Results

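PORB (AT4G27440) encodes a light-dependent protochlorophyllide oxidoreductase of the chloroplast. The gene was followed through the 1 probe set that the platform annotation pairs with it, out of 22746 probe sets that are not array controls. PORB was chosen by its own levels in the 4 groups of these data, so those levels and differences are given as a description, with no test. Leaf RNA of Arabidopsis thaliana had been hybridised to 12 Affymetrix ATH1 arrays, on which short probes of a transcript are read together as a probe set. The 4 groups held 3 arrays each, named biological replicates by the study's design. They were wild type Col-0 irrigated with water (untreated here), wild type irrigated with sodium sulfide (Na2S), the des1-1 mutant with water, and the des1-1 mutant with Na2S. All plants shared the Col-0 background, soil and days of 16 h light and 8 h dark. They grew for 20 days, were irrigated for 10 days more with water or with a solution labelled 200 mM Na2S, and were sampled as leaves at 30 days. The labels give no hour of harvest. DES1 degrades cysteine in the cytosol and so releases sulfide. The DES1 transcript is not analysed here. Only 1 insertion line was used, so differences between the genotypes cannot be told apart from those of other changes that this line carries. Effects of sulfide cannot be told apart from those of sodium or of the solution's other properties.

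Chlorophyll is built from glutamate by way of 5-aminolevulinate, porphyrins and magnesium porphyrins. Protochlorophyllide oxidoreductase then reduces protochlorophyllide to chlorophyllide, a step that in flowering plants needs light. Arabidopsis has the isoforms PORA, PORB and PORC. PORA acts mostly in seedlings that first meet light, whereas PORB and PORC serve green tissue. Their transcripts are known to respond to light, to the clock and to leaf development. PORA and PORC are not analysed here. Whether the PORB probe set also reads transcripts of its relatives was not tested.

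PORB stood high in untreated wild type alone. All values are log2 expression on the scale of robust multi-array average (RMA), on which a difference of 1 is a doubling. The untreated wild type arrays gave PORB levels of 12.44, 12.71 and 12.50. The treated wild type arrays gave 7.61, 7.64 and 7.55, and the treated des1 arrays gave 7.67, 7.73 and 7.63. The untreated des1 arrays gave 6.02, 6.18 and 6.25. Untreated wild type and untreated des1 thus formed the ends of the range, each apart from every other array, while the treated groups overlapped in the middle (7.63 in des1 against 7.64 in wild type).

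**Figure D1:**
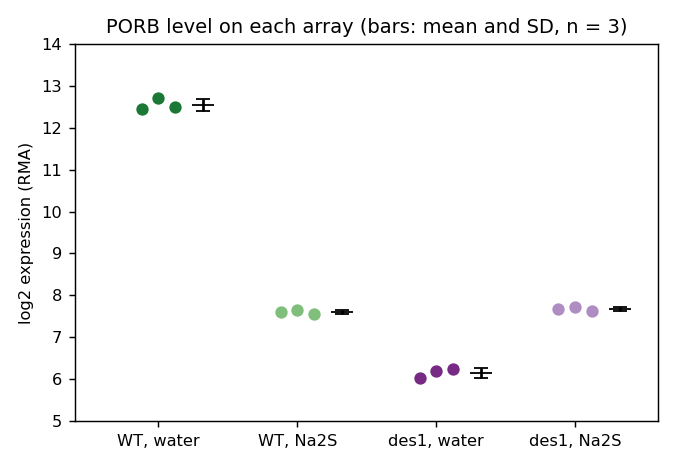
PORB log2 expression (vertical axis, RMA scale) on each of the 12 arrays, by group; points are arrays and bars give the mean and SD of 3. Untreated wild type lies near 12.55, both treated groups lie between 7.55 and 7.73, and untreated des1 lies at or below 6.25.

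In rising order, the PORB means were 6.15 ± 0.12 (SD, n = 3) in untreated des1, 7.60 ± 0.05 in treated wild type, 7.68 ± 0.05 in treated des1 and 12.55 ± 0.14 in untreated wild type. The neighbours in this order that did not differ beyond their spread were the treated groups. Under water PORB was 84.4-fold lower in des1 than in wild type, a log2 difference of -6.40 ± 0.10 (limma SE, n = 3 per group). That was rank 1 from the most negative end among the 22746 probe sets. Under Na2S the same genotype difference was 0.08 ± 0.10. Na2S went with a PORB level 30.9-fold lower in wild type (-4.95 ± 0.10) and 2.88-fold higher in des1 (1.53 ± 0.10). Every treated wild type array lay below every untreated one by at least 4.80, and every treated des1 array lay above every untreated one by at least 1.38. The genotype difference under Na2S minus that under water was 6.48 ± 0.14, rank 1 from the most positive end. These comparisons share groups, so their values are not independent of each other.

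Treated des1 did not reach untreated wild type. Its mean PORB level remained 29.3-fold lower (log2 difference -4.87), close to that of treated wild type. Treated wild type, in turn, stood 2.73-fold above untreated des1 (1.45). The lowest untreated wild type array exceeded the highest of the other 9 arrays by 4.71, a gap that 2 of the 22746 probe sets surpassed and that was at least 1 in 270 of them. The lowest PORB value, 6.02, lay above the median of every array over all probe sets, 5.71 to 5.80, and the file holds no detection calls. In leaf RNA, fewer cells that express PORB and less PORB transcript per cell cannot be told apart.

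The other genes of chlorophyll synthesis ask whether PORB stood alone in its pathway. A list of 32 genes besides PORB was fixed by locus, and 12 of them were matched to a probe set annotated to that gene alone. Only genes matched in this way are called measured here. Whether other probe sets read the remaining genes was not examined. In untreated des1, 8 of these 12 fell, 0 rose and 4 did not pass limma at an adjusted p of 0.05, where 22.6% of all 22746 probe sets fell and 22% rose. Their median log2 difference was -0.58, beside 0.01 over all probe sets. Each of these falls was smaller than that of PORB, which the rank of PORB at the negative end already fixes.

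Among the measured genes, the falls in untreated des1 included steps from 5-aminolevulinate synthesis to the magnesium branch. The fixed genes HEMA1, CHLH, CHLD, CHLI1, GUN4, CRD1 and DVR, among others, were not measured. GSA1, which makes 5-aminolevulinate, fell by 1.21 ± 0.12 on the log2 scale (limma adjusted p = 1.1e-07), and HEMB1, the dehydratase that joins 5-aminolevulinate into a pyrrole, fell by 1.13 ± 0.10 (adjusted p = 4.88e-08). HEME1 and HEME2, both uroporphyrinogen decarboxylases, fell by 2.68 ± 0.12 and by 1.97 ± 0.10. CHLI2, a subunit of the magnesium chelatase that commits porphyrin to chlorophyll, fell by 2.08 ± 0.11 (adjusted p = 2.19e-11). Smaller falls were those of CHLM, the magnesium protoporphyrin methyltransferase (-0.55 ± 0.10), of LIL3:1, a light-harvesting-like protein that holds geranylgeranyl reductase at the membrane (-0.61 ± 0.10), and of AT1G74470, the geranylgeranyl reductase that supplies the phytol tail (-0.51 ± 0.11, adjusted p = 0.000801). LIL3:2 (0.10 ± 0.11), the glutamyl-tRNA reductase genes HEMA2 (-0.11 ± 0.14) and HEMA3 (-0.09 ± 0.12), and hemb2 (-0.06 ± 0.10) did not pass. HEMA3 and hemb2 had group means of at most 3.69, at or below the arrays' lower quartiles of 3.69 to 3.90, so a change in them could be compressed.

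HEME1 was measured at 10.11, 9.75 and 10.13 in untreated wild type, and at 7.14, 7.51 and 7.29 in untreated des1. Its treated arrays gave 8.74, 8.84 and 8.74 in wild type and 8.91, 9.03 and 9.07 in des1. All 6 treated HEME1 values lay between those of the untreated genotypes, as they did for PORB. CHLI2 was at 10.05, 10.13 and 10.02 in untreated wild type, at 8.80, 8.64 and 8.52 in treated wild type, at 7.85 to 8.14 in untreated des1 and at 8.72 to 8.91 in treated des1. All treated arrays lay above all untreated des1 arrays for 8 of the 12 genes, against 16.9% of all probe sets, and below all untreated wild type arrays for 5, against 15.7%. Both held, as for PORB, for the 5 genes GSA1, HEMB1, HEME1, HEME2 and CHLI2, against 4.03% of all probe sets. The treated groups themselves overlapped for GSA1, HEMB1 and CHLI2 but not for HEME1 and HEME2, which lay slightly higher in des1.

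**Figure D2:**
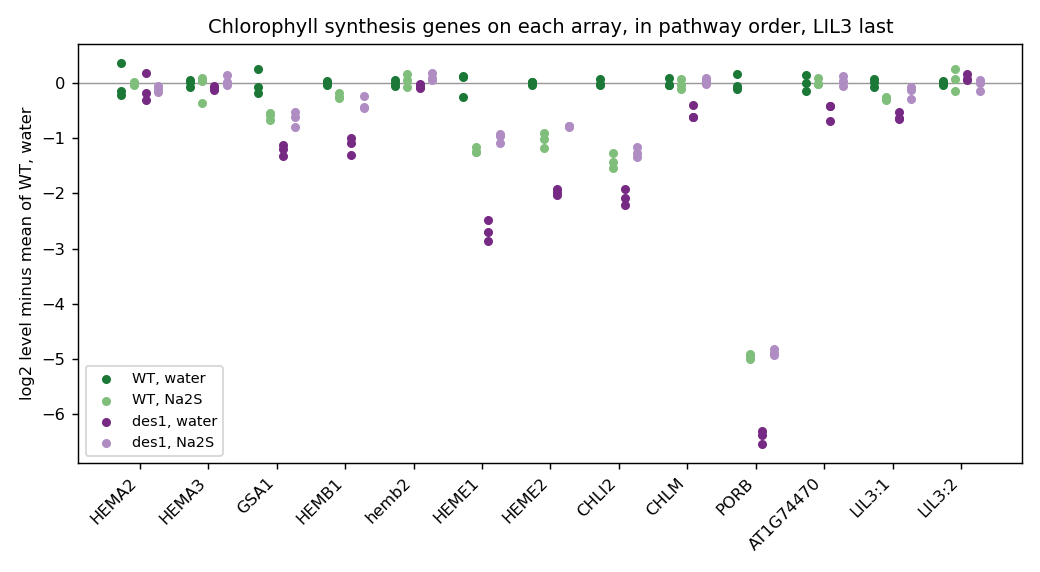
Log2 level of each chlorophyll synthesis gene on each array, as a difference from its own mean in untreated wild type (vertical axis), with genes in pathway order and the LIL3 genes last. PORB spans more than 6 log2 units, HEME1 spans nearly 3, and HEMA2, HEMA3, hemb2 and LIL3:2 stay near 0 in all groups.

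Between the treated genotypes no gene of this list passed. Of the 12, 0 passed limma and 1 had an unadjusted p under 0.05 (HEME2, 0.25 ± 0.10, adjusted p = 0.307), where 1.4% of all probe sets passed (0.585% higher and 0.813% lower). That share is 318 probe sets, with 838 under array weights and 186 to 207 without any of treated des1 replicates 1, 2 and 3 or treated wild type replicates 1 and 2. The differences of the 12 listed genes lay between -0.13 and 0.25, with a median of 0.06. HEME1 differed by 0.23 ± 0.12, CHLI2 by 0.16 ± 0.11 and GSA1 by -0.04 ± 0.12.

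Na2S went opposite ways in the 2 genotypes for part of the list. In wild type 5 of the 12 fell and 0 rose, where 15.4% of all probe sets fell and 15% rose. CHLI2 fell by 1.41 ± 0.11, HEME1 by 1.22 ± 0.12, HEME2 by 1.03 ± 0.10 and GSA1 by 0.60 ± 0.12 on the log2 scale (adjusted p from 8.54e-09 to 0.00065). LIL3:1 fell by 0.28 ± 0.10 (adjusted p = 0.0321), a call that was lost without any of treated wild type replicates 1, 2 and 3 or untreated wild type replicates 1 and 3 (adjusted p from 0.0538 to 0.121). It was lost too with arrays centred on their medians (adjusted p = 0.0856) and in a fit to the compared arrays alone (adjusted p = 0.0518). HEMB1 (-0.24 ± 0.10), CHLM (-0.03 ± 0.10) and AT1G74470 (0.01 ± 0.11) did not pass in wild type, though HEMB1 did with array weights (adjusted p = 0.0288).

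In des1, 8 of the 12 genes rose with Na2S and 0 fell, where 17.5% of all probe sets rose and 19.6% fell. HEME1 rose by 1.69 ± 0.12 (adjusted p = 3.69e-09), HEME2 by 1.19 ± 0.10, CHLI2 by 0.82 ± 0.11 and HEMB1 by 0.76 ± 0.10. CHLM rose by 0.59 ± 0.10, GSA1 by 0.57 ± 0.12, AT1G74470 by 0.54 ± 0.11 and LIL3:1 by 0.44 ± 0.10. The interaction, which tests the difference between these Na2S effects, passed for the same 8 genes (18.6% of all probe sets passed in that direction and 19.1% in the other), at 2.91 ± 0.17 for HEME1, 2.23 ± 0.15 for CHLI2 and 2.22 ± 0.14 for HEME2 (adjusted p up to 1.89e-09 for these). For CHLM and AT1G74470 the wild type effect lay near 0, so that the interaction of 0.61 ± 0.14 and 0.53 ± 0.16 came with a change in des1.

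As a description over 12 arrays that fall into 4 groups, the level of CHLI2 had a Pearson correlation with PORB of 0.98, GSA1 of 0.91, HEME2 of 0.91, HEME1 of 0.87, LIL3:1 of 0.81 and HEMB1 of 0.76. CHLM (0.52) and AT1G74470 (0.48) followed PORB less closely, since their treated levels equalled those of untreated wild type within the spread of the arrays. LIL3:2 stood at -0.23 and hemb2 at 0.02. The shared group structure sets most of each value.

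Of the light and POR regulators fixed, 2 of 32 were measured, and both rose in untreated des1, where 22% of all probe sets did. HYH, a bZIP factor and close relative of the light regulator HY5, was at 5.44, 5.22 and 5.65 in untreated wild type. It lay between 8.86 and 9.31 on the other 9 arrays. HYH was therefore low where PORB was high, but did not share the step between untreated des1 and the treated groups. HYH rose by 3.56 ± 0.13 in untreated des1 and by 3.71 ± 0.13 with Na2S in wild type (limma adjusted p = 2.8e-13), and differed by 0.14 ± 0.13 with Na2S in des1. EIN3, a transcription factor of ethylene signalling, is known in Arabidopsis seedlings to bind the PORA and PORB promoters. It rose by 0.25 ± 0.09 in untreated des1 (limma adjusted p = 0.041). With Na2S it fell by 0.32 ± 0.09 in wild type and by 0.62 ± 0.09 in des1. The rise of EIN3 was lost without any of untreated des1 replicates 2 and 3 or untreated wild type replicates 1 and 3 (adjusted p from 0.0503 to 0.164), after quantile normalization again (adjusted p = 0.137) and in a fit to the compared arrays alone (adjusted p = 0.0717). Its fall in wild type was lost without treated replicate 3 (adjusted p = 0.0666) or untreated replicate 1 (adjusted p = 0.0652). The clock gene GI, 1 of 18 clock genes fixed, fell in untreated des1 by 1.02 ± 0.12 and with Na2S by 1.61 ± 0.12 in wild type and by 0.73 ± 0.12 in des1.

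Across the chlorophyll-binding, carotenoid, breakdown and siroheme lists, transcripts moved in both directions in untreated des1. LHCB4.1, LHCB4.2 and LHCB4.3 encode the minor antenna protein CP29, which binds chlorophyll, and were the measured genes among 26 fixed. In untreated des1, LHCB4.1 fell by 0.64 ± 0.10 and LHCB4.3 rose by 0.53 ± 0.12. LHCB4.2 differed by -0.22 ± 0.10 without passing (adjusted p = 0.0771), though it passed without untreated des1 replicate 1 (adjusted p = 0.0368), with array weights (adjusted p = 0.00336) and with a trended robust variance (adjusted p = 0.0149). Among 22 isoprenoid and carotenoid genes 2 were measured: LYC, lycopene cyclase, rose by 1.2 ± 0.11 in untreated des1, and Z-ISO, a carotene isomerase, fell by 0.53 ± 0.12. Of 14 chlorophyll breakdown genes 2 were measured. NOL, a chlorophyll b reductase, differed by 0.16 ± 0.13 without passing, and AT1G44000 rose by 0.36 ± 0.11 (adjusted p = 0.00825), a call lost without untreated wild type replicate 1 (adjusted p = 0.0562). SIRB, which inserts iron into siroheme and was the 1 gene measured of 9 on the heme, siroheme and bilin list, differed by -0.17 ± 0.10 without passing. Across all 7 lists 23 of 153 genes other than PORB were measured; 16 of the 23 passed between the genotypes under water (44.7% of all probe sets did) and 0 under Na2S, where 2 had an unadjusted p under 0.05. For Na2S 11 of the 23 passed in wild type (30.4% of all probe sets) and 15 in des1 (37.1%), and 13 passed the interaction (37.7%).

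**Figure D3:**
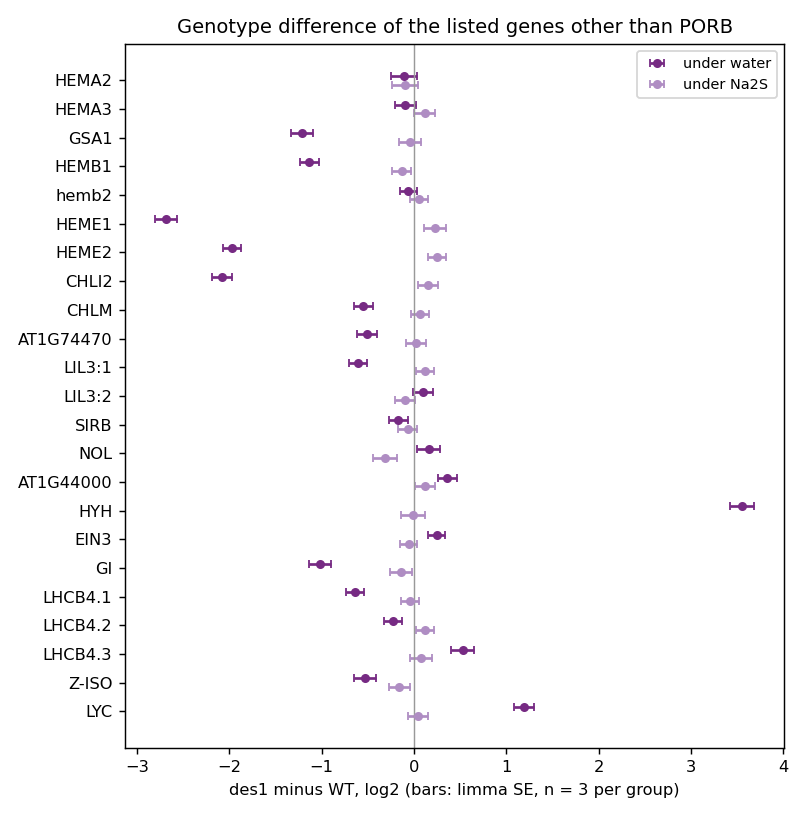
Log2 difference between des1 and wild type (horizontal axis, limma SE as bars, n = 3 per group) for the 23 measured genes of the 7 lists, under water and under Na2S. Under water HEME1 lies at -2.68 and HYH at 3.56, and under Na2S every gene lies between -0.31 and 0.25.

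By Pearson correlation over the arrays, the profiles closest to PORB, among the probe sets compared, came from outside the pathway. Of the 32 other chlorophyll synthesis genes, only the 12 measured could enter, and of these only those spanning at least 1. Whether the pathway's unmeasured genes follow PORB as closely was not examined. The choice of measure sets which genes are closest. Of the 10 highest, 1 (Fes1B) was also among the 10 nearest by Euclidean distance, 0 by Spearman correlation and 0 by correlation over the group means. Among 1990 other probe sets of 1 gene whose group means spanned at least 1 on the log2 scale, 294 (14.8%) had a Pearson correlation with PORB above 0.9 over the 12 arrays and 327 (16.4%) one below -0.9. A correlation of this size does not require the same placing of all groups, since HYH had one of -0.95. The 10 highest were TUB5, a beta-tubulin (0.997), AT5G62350 (0.995), AT5G24490 (0.994), EXPA8, a wall-loosening expansin (0.994), AT2G22400 (0.992), AT2G43550 (0.991), AT4G24175 (0.990), AT2G30600 (0.990), AT1G78170 (0.989) and Fes1B (0.989). The 5 lowest were AT5G15950 (-0.996), AFR, an F-box protein of far-red light signalling (-0.994), AT5G11650 (-0.993), AT5G54130 (-0.993) and GR1, a glutathione reductase (-0.993).

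TUB5 was at 10.68, 10.78 and 10.72 in untreated wild type, at 7.92 to 8.09 in treated wild type, at 7.39 to 7.52 in untreated des1 and at 8.03 to 8.20 in treated des1. It thus repeated the order of PORB over a narrower range, with a difference between untreated des1 and untreated wild type of -3.26 where that of PORB was -6.40. AFR mirrored PORB, with 8.11 to 8.38 in untreated wild type, 10.40 to 10.59 on the treated arrays and 11.01 to 11.18 in untreated des1. Among the 10, the mean difference between untreated des1 and untreated wild type ran from -1.5 in AT2G22400 to -3.95 in Fes1B. That all were smaller than that of PORB is fixed by the rank of PORB at the negative end. These genes were picked for the likeness of their values, so their differences are given without a test.

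**Figure D4:**
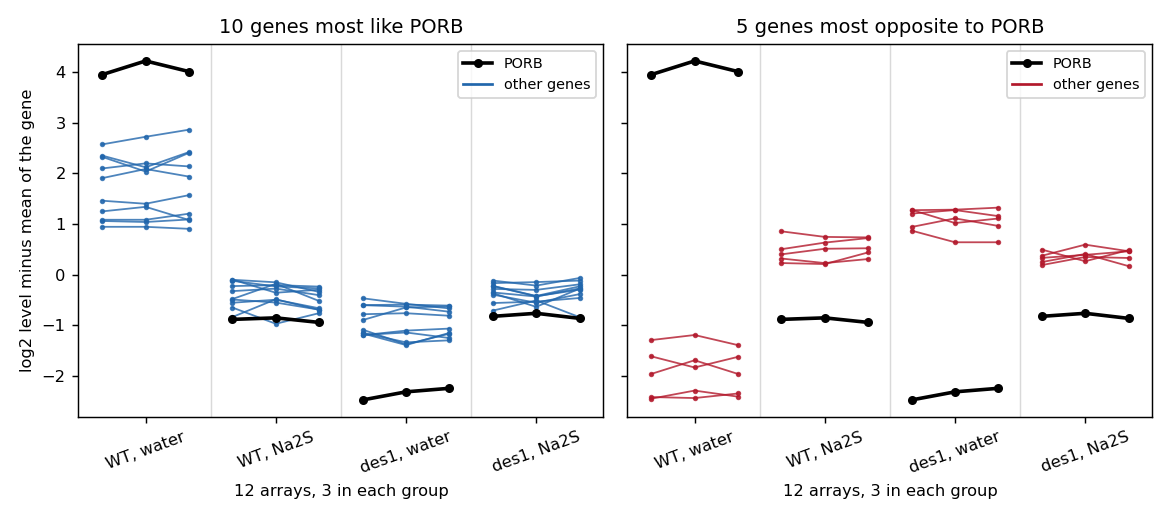
Log2 level minus each gene's own mean (vertical axis) on the 12 arrays, 3 per group (horizontal axis), for PORB (black), the 10 genes with the highest correlation with it (left) and the 5 with the lowest (right). The like genes share the high level in untreated wild type and the low level in untreated des1, over a narrower range than PORB.

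Markers of leaf tissue and of other leaf cells were read beside PORB, 15 of 60 fixed. The mesophyll genes RCA, PSAN and PSBW were strongly expressed in every group, with a log2 summed level of 15.22 to 15.45 over all arrays. In untreated des1, RCA rose by 0.32, whereas PSAN (-0.49) and PSBW (-0.33) fell (limma adjusted p from 0.000819 to 0.0154), and the fall of PSBW was lost without untreated des1 replicate 2 (adjusted p = 0.0716). Of the flower meristem and root markers fixed, 0 were measured here. The 3 dividing-cell markers, PRL, AUR1 and AUR2, had log2 summed levels of 8.30 to 8.46 in untreated wild type, 7.77 to 7.85 in treated wild type, 7.45 to 7.61 in treated des1 and 6.38 to 6.61 in untreated des1, and all 3 fell in untreated des1 (log2 differences of -1.44, -1.83 and -2.11), where 22.6% of all probe sets fell. The 4 senescence markers had summed levels of 6.63 to 6.78 in untreated wild type and 7.06 to 7.37 in the treated groups. In untreated des1 their sum was 10.77 to 11.31. SAG29 was at 10.67 to 11.24 in untreated des1 and at 5.01 to 6.50 elsewhere, so that sum was mostly SAG29. In untreated des1 3 of the 4 rose, where 22% of all probe sets rose. SAG29 rose by 5.93, WRKY53 by 0.83 and WRKY6 by 0.69. SAG101 (0.23) passed there only with array weights (limma adjusted p = 0.0123). With Na2S in des1 all 4 fell, where 19.6% of all probe sets fell. With Na2S in wild type SAG29 rose by 1.3 and WRKY53 fell by 0.38 (limma adjusted p = 0.0497), a call lost under 6 of 8 processing alternatives (all but array weights and the removal of dim probe sets, adjusted p from 0.0555 to 0.106) and without any of untreated wild type replicates 1 and 3 and treated wild type replicate 1 (adjusted p from 0.108 to 0.258). SAG101 (-0.27) and WRKY6 (-0.27) did not pass, so the higher sum of the treated wild type arrays came from SAG29. With array weights both passed as lower (limma adjusted p = 0.014 and 0.019), as did SAG101 without treated wild type replicate 1 (adjusted p = 0.0065). SAG101 had means of 3.94 in treated wild type and 3.81 in treated des1, near the arrays' lower quartiles. The 3 stomatal lineage markers had summed levels of 6.82 to 6.86 in untreated wild type, 6.78 to 7.12 in the treated groups and 6.32 to 6.53 in untreated des1. SPCH (-0.60), FMA (-0.34) and MUTE (-0.30) fell in untreated des1 (limma adjusted p from 0.00372 to 0.0303), where 22.6% of all probe sets fell. The falls of MUTE and FMA were each lost without single arrays (adjusted p from 0.0781 to 0.131). In untreated des1 MUTE (3.46) and SPCH (3.80) lay near or below the arrays' lower quartiles. All 3 rose with Na2S in des1, where 17.5% of all probe sets rose. The trichome gene TRY was at 6.14 to 6.56 in untreated wild type and at 7.95 to 9.13 elsewhere, and the phloem sugar transporter SWEET11 was at 10.53 to 10.66 against 11.26 to 12.01 elsewhere. The 25S rRNA control probe set gave 10.93 to 11.97 in untreated des1 and 11.95 to 12.58 on the other arrays. The 3 ubiquitin control probe sets stood higher in untreated des1 than in untreated wild type. Their means were 12.21 against 11.14 at the 5′ end, 11.31 against 10.65 in the middle and 13.53 against 12.92 at the 3′ end. In treated wild type and treated des1 they were 11.57 and 11.48 at the 5′ end, 10.66 and 10.67 in the middle. At the 3′ end they were 13.04 and 13.00. The 3′ mean exceeded the 5′ mean by most in untreated wild type and by least in untreated des1. The part of dividing cells, senescence, other cell types or RNA quality in the PORB levels was not tested.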

How the data were processed

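Expression was measured on 12 ATH1 arrays, 3 in each of 4 groups taken with their replicate numbers from the sample labels. The deposited values are log2 expression made by the authors; the submitters' processing notes name RMA and the affy package without versions, and whether the 12 were normalized jointly is not given in the sources used here. No further scaling was applied (medians of 5.71 to 5.80 per array). Precision is limited by the number of arrays. Of 22746 probe sets that are not controls (64 were), 13513 have 1 gene in the platform annotation, 503 several and 8730 none listed; 13436 of the first matched a RefSeq locus (TAIR10.1), which supplied names and gene order only.

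All 12 arrays entered a single limma 3.58.1 fit (lmFit and eBayes, R 4.3.3) with the 4 group means as coefficients, and Benjamini-Hochberg adjustment ran over the 22746 at a threshold of 0.05. The fit was tested on simulated data. PORB received no test. PORB, the lists and the tests were chosen with earlier results of these data known. Named genes are the measured list members that passed, up to 8 per list and comparison. Genes of the steps next to PORB were to be named too, but of these only AT1G74470 was measured. Also named, among probe sets of 1 gene whose group means span at least 1, are the 10 with the highest and the 5 with the lowest Pearson correlation with PORB. Members that did not pass are named with their values and, like TUB5 and AFR given in full, were picked after their values were seen, as were the markers shown.

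Alternatives were quantile normalization again, median centring, leaving out probe sets below the 40th percentile of the mean, a trended robust variance, weights per array, fits to only the groups compared, a block for the replicate number, probe sets of 1 gene only, each array left out, and other measures of likeness. A planned search of promoter motifs was not run, and no sequence is shown.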

Additional observations from a re-analysis of the deposited data

Results flagged for a closer look

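PORB was lower with Na2S in wild type (log2 difference -4.95) and higher with it in des1 (1.53), and each genotype's treated arrays lay on the opposite side of its untreated ones. This difference was not tested, because the gene was chosen for it.

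The Na2S effect differed between the genotypes by limma's interaction test in 13 of the 23 listed genes, where 37.7% of all probe sets passed, given here as the effect in des1 minus that in wild type on the log2 scale. Among the chlorophyll synthesis genes it was 2.91 for HEME1, 2.23 for CHLI2, 2.22 for HEME2, 1.17 for GSA1, 1.00 for HEMB1, 0.73 for LIL3:1, 0.61 for CHLM and 0.53 for AT1G74470. It was -3.57 for HYH, -1.15 for LYC, 0.88 for GI and 0.60 for LHCB4.1. For NOL it was -0.47 (limma adjusted p = 0.0433), a call lost after quantile normalization again (adjusted p = 0.104) and without any of treated des1 replicate 2, untreated des1 replicates 2 and 3, treated wild type replicates 1 and 2 and untreated wild type replicate 2 (adjusted p from 0.0645 to 0.125).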

How the results depend on the processing

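The PORB differences kept their direction under quantile normalization again, median centring, the replicate block and each array left out. Quantile normalization again moved the interaction from 6.48 to 6.59, a move smaller than its SE of 0.14. Without single arrays PORB ranged from -6.46 to -6.32 for des1 against wild type under water, from 0.05 to 0.10 under Na2S, from -5.01 to -4.87 for Na2S in wild type, from 1.46 to 1.58 for Na2S in des1 and from 6.40 to 6.53 for the interaction. The chlorophyll synthesis counts of 8 under water, 8 for Na2S in des1, 8 for the interaction and 0 between the genotypes under Na2S held under every alternative run; for Na2S in wild type the count ran from 4 to 6. The replicate numbers showed no clear pairing of the arrays (1 of 18 same-numbered pairs correlated above 0.1, from -0.21 to 0.16). These are not correlations of the levels themselves, which were 0.945 to 0.996 between arrays of different groups. Pairs with different numbers are not given for comparison. With the replicate block 12 of 23 listed genes passed the interaction in place of 13, NOL being lost (adjusted p = 0.0561), and the rise of EIN3 in untreated des1 was lost (adjusted p = 0.0568). Over all probe sets, the count between the genotypes under Na2S was 318, with 838 under array weights, 186 to 207 without any of treated des1 replicates 1, 2 and 3 or treated wild type replicates 1 and 2, and 273 without treated wild type replicate 3. With probe sets of 1 gene only, where fewer are tested, counts were 134 for that comparison, 5397 under water, 3526 for Na2S in wild type, 4442 for Na2S in des1 and 4472 for the interaction. Of the 10 genes most like PORB, 7 to 10 remained without single arrays, 9 with median centring and 10 with no minimum span. Only 1, Fes1B, remained by Euclidean distance, 0 by Spearman correlation and 0 by correlation over the 4 group means, so the ranking depends on the measure. The compressed low end of RMA limits HEMA3 and hemb2 and, among the markers, MUTE, SPCH and, in the treated groups, SAG101.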

Other observations

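The genes next to PORB on chromosome 4 did not repeat its profile. Of the 10 nearest protein-coding genes, 5 on each side, 4 were measured. AT4G27435, the next gene on the lower side, had means of 6.93 in untreated wild type, 7.0 in treated wild type, 5.77 in untreated des1 and 7.15 in treated des1. It fell by 1.16 in untreated des1 (limma adjusted p = 7.44e-08) and differed by 0.07 with Na2S in wild type (adjusted p = 0.691). AT4G27450, the next gene on the upper side, fell by 1.37 with Na2S in wild type (adjusted p = 1.82e-06) and differed by 0.05 between the untreated genotypes (adjusted p = 0.84). AT4G27480 rose by 1.04 in untreated des1 (adjusted p = 5.01e-06), and RRP41L fell by 0.50 (adjusted p = 0.00314). The correlations of these 4 with PORB over the 12 arrays lay between -0.53 and 0.46, given as a description.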
